A study of Homo sapiens with 12 samples.

Results

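Aminoacyl-tRNA synthetases are the enzymes that attach each amino acid to its transfer RNA, and 36 of their genes were followed in BON-1 tumour cells grown alone or beside cancer-associated fibroblasts (CAFs). The 36 were listed by symbol, with earlier results of these data known. All 36 were found among the 54261 genes of the expression table under the symbols used here. They comprised 20 genes for enzymes of the cytosol and 16 for enzymes of mitochondria, whose symbols end in 2. All 36 passed the filter for testing.

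Each synthetase recognises its amino acid and the matching transfer RNAs, and joins them at the cost of ATP, so that the ribosome reads codons correctly. Mitochondria translate their own few messages with a separate set of enzymes that are encoded in the nucleus and imported, although the KARS and GARS genes supply both compartments. In the cytosol some synthetases are bound with scaffold proteins in the multisynthetase complex, and several cytosolic synthetase genes are known targets of ATF4, the transcription factor of the amino acid response.

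BON-1 is an established human pancreatic neuroendocrine tumour line. Poly(A) RNA was sequenced from 4 groups of 3 libraries each: BON-1 cells alone, and BON-1 cells recovered by flow cytometry from co-cultures with CAFs at 10:2, 10:4 and 10:6. Whether the 3 libraries of a group came from separate cultures is not stated, so the p-values measure the spread between libraries, which may be technical. Whether the cells grown alone passed through a sorter is not stated either. If they did not, co-culture and sorting cannot be told apart in any comparison with BON-1 alone. Levels are FPKM, fragments scaled by the length of the gene and the depth of the library. The depths used in that scaling, recovered from the values, were 11703624 to 21882537 per library.

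The sort was checked against markers. Of 6 neuroendocrine markers, 5 were expressed at tested levels and their summed level was 2568 ± 37.4 FPKM (SD, n = 3) alone and 2877 ± 53.4 at 10:6, while TPH1 was near 0 and at 0 in 3 libraries. The sum held opposite changes: at 10:6 SCG2 rose by 0.91 and CHGB by 0.32, while CHGA fell by 0.47, INSM1 by 0.19 and SYP by 0.11 (highest adjusted p of the 5, 0.0231). Fibroblast markers moved with the groups. The summed level of 16 of them was 56.9 to 60.9 FPKM alone, 93.7 to 95.6 at 10:2, 174 to 179 at 10:4 and 255 to 258 at 10:6. Of the 12 that could be tested, 9 rose at 10:2, 12 at 10:4 and 12 at 10:6. The mean of COL1A1 went from 9.22 FPKM alone to 54.4 at 10:6, that of ACTA2 from 5.99 to 38.5 and that of SPARC from 5.05 to 34.6. The 4 below the filter were also higher at 10:6, DCN with means of 0.0293 and 0.334, FAP 0.00936 and 0.0966, LUM 0.126 and 0.533, and POSTN 0.0617 and 0.832; DCN and FAP were each at 0 in 1 library. The part of fibroblast RNA in the synthetase results was not tested. In bulk RNA, more cells that express a gene and more RNA per cell cannot be told apart.

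In BON-1 cells alone the cytosolic genes had a median level of 54.0 FPKM and the mitochondrial genes one of 12.3 FPKM. MARS, the methionine enzyme, stood highest at 156 ± 2.31 FPKM (SD, n = 3), followed by AARS for alanine at 150.0, KARS for lysine at 139, FARSA, a subunit of the phenylalanine enzyme, at 119.6 and GARS for glycine at 109.8. QARS for glutamine (99.7), YARS for tyrosine (96.3), SARS for serine (95.4), HARS for histidine (67.9), WARS for tryptophan (58.5) and CARS for cysteine (49.5) lay in the middle of the cytosolic set. The lowest cytosolic genes were LARS for leucine (7.53), DARS for aspartate (9.82) and EPRS for glutamate and proline (10.2). Among mitochondrial genes SARS2 was highest at 31.2 ± 0.498 FPKM and PARS2 lowest at 2.39 ± 0.381. The level of VARS, the valine enzyme, is not comparable with the others, since the length behind its FPKM is 12882 bases against 6081 exon bases in GENCODE 29; its changes between libraries are unaffected. To a lesser degree the length also exceeds the exon bases for FARSB (4355 against 3369), NARS2 (4176 against 3153), YARS2 (2605 against 2152) and AARS2 (4782 against 4298). Their levels may be understated, and ratios that hold them are read only for changes between libraries.

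In co-culture with CAFs some cytosolic genes rose and others fell. Of 20, 9 rose and 4 fell at 10:2 against BON-1 alone, 9 rose and 7 fell at 10:4, and 9 rose and 5 fell at 10:6. A call here is a Benjamini-Hochberg adjusted p under 0.05 from limma, fitted over all 13312 tested genes on log2(FPKM + 1), a scale that understates the change of low genes. Of all tested genes 19.9% rose and 7.46% fell at 10:2, 27.3% and 18.1% at 10:4, and 29.7% and 18.3% at 10:6. Of the 16 mitochondrial genes 1 rose and 0 fell at 10:2, 3 rose and 2 fell at 10:4, and 3 rose and 4 fell at 10:6. The median log2 difference at 10:6 was 0.01 over the cytosolic genes, -0.07 over the mitochondrial genes and 0.02 over all tested genes, so the centre of either set lay near that of all genes while its members spread from -0.29 for CARS2 to 1.11 for EPRS. The 3 comparisons share the same BON-1 alone libraries.

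**Figure D1:**
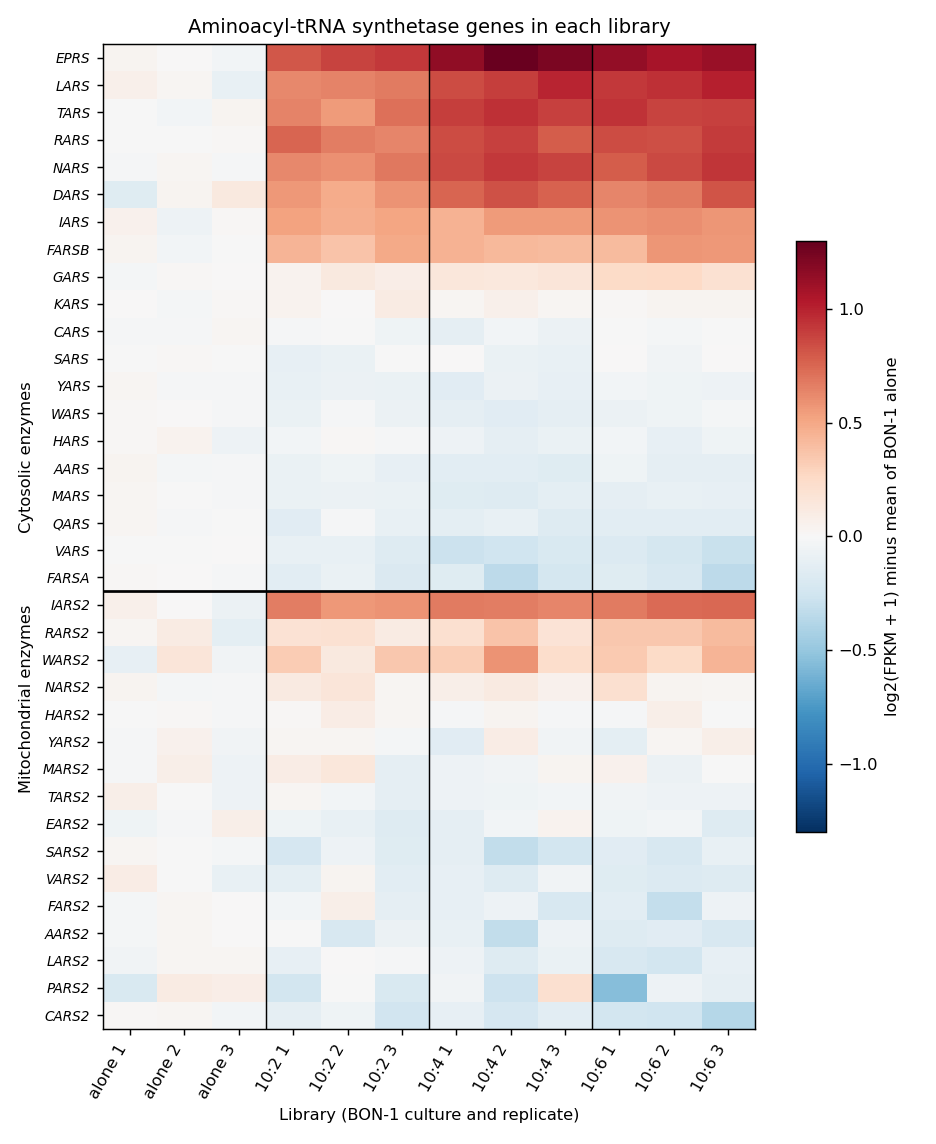
Heat map of log2(FPKM + 1) minus the mean of BON-1 alone for the 36 synthetase genes (rows, cytosolic above the line and mitochondrial below, ordered by the difference at 10:6) in each of the 12 libraries (columns). Red rows, from EPRS to GARS and IARS2 to WARS2, lie above BON-1 alone in the co-cultures, and most other rows are pale or faintly blue.

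EPRS, which encodes the fused glutamyl and prolyl enzyme and lies on chromosome 1 from 219968601 to 220046658, minus strand (GENCODE 29, GRCh38), had the largest difference of the 36 in each comparison with BON-1 alone. Its level was 10.4, 10.2 and 9.91 FPKM in the 3 libraries of BON-1 alone, 18.6, 19.5 and 20.2 at 10:2, 23.9, 26.2 and 25.0 at 10:4 and 23.7, 22.5 and 23.4 at 10:6. No co-culture library reached down to those of BON-1 alone, and the level was highest at 10:4. The log2 difference was 0.87 (SE 0.0438, adjusted p = 6.14e-07) at 10:2, 1.22 (SE 0.0438, adjusted p = 9.93e-09) at 10:4 and 1.11 (SE 0.0438, adjusted p = 2.22e-08) at 10:6. The mean FPKM was 1.91, 2.46 and 2.28 times that of BON-1 alone.

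LARS, the leucine enzyme (chromosome 5 from 146113038 to 146182660, minus strand), was at 7.94, 7.69 and 6.96 FPKM alone, 12.2, 12.3 and 12.6 at 10:2, 14.4, 14.9 and 15.9 at 10:4 and 15.1, 15.5 and 16.1 at 10:6. Every co-culture library lay above those of BON-1 alone, and its log2 difference at 10:6 was 0.96 (SE 0.0522, adjusted p = 1.74e-07). TARS, the threonine enzyme (chromosome 5 from 33440696 to 33469539, plus strand), was at 47.0, 45.9 and 48.1 FPKM alone, 74.2, 69.6 and 77.8 at 10:2, 88.5, 91.4 and 88.1 at 10:4 and 90.8, 87.5 and 87.6 at 10:6. Its libraries at 10:4 and 10:6 ran together, above 10:2, with a log2 difference at 10:6 of 0.90 (SE 0.0392, adjusted p = 3.94e-08). RARS, the arginine enzyme (chromosome 5 from 168486445 to 168519299, plus strand), was at 17.4, 17.3 and 17.6 FPKM alone, 30.1, 28.3 and 27.6 at 10:2, 32.3, 33.1 and 30.7 at 10:4 and 32.2, 32.0 and 33.7 at 10:6. The groups again did not overlap with BON-1 alone, and the log2 difference at 10:6 was 0.87 (SE 0.0410, adjusted p = 6.56e-08).

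NARS, the asparagine enzyme (chromosome 18 from 57600656 to 57622213, minus strand), was at 30.9, 31.8 and 30.9 FPKM alone, 48.8, 47.7 and 50.7 at 10:2, 57.3, 59.8 and 58.3 at 10:4 and 54.5, 57.4 and 60.3 at 10:6. It stood above BON-1 alone in all 9 co-culture libraries, by 0.86 on the log2 scale at 10:6 (SE 0.0395, adjusted p = 5.28e-08). GARS, the glycine enzyme (chromosome 7 from 30594681 to 30634033, plus strand), was at 108, 111 and 110.2 FPKM alone, 113, 119.6 and 117 at 10:2, 121, 121 and 122 at 10:4 and 130.2, 131 and 126 at 10:6. This was the smallest of the cytosolic rises, a log2 difference of 0.09 at 10:2 (adjusted p = 0.0349), 0.15 at 10:4 and 0.23 at 10:6 (SE 0.0273, adjusted p = 3.70e-05). The call at 10:2 was lost under median-of-ratios scaling (adjusted p = 0.194), with the GC and length trends removed (adjusted p = 0.0823), and without any 1 of the 3 libraries of BON-1 alone or of replicate 2 or 3 of 10:2, where the log2 difference lay between 0.07 and 0.09; it was also lost with no variance trend and with only the groups compared in the fit.

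The other cytosolic genes that rose were DARS, IARS for isoleucine, and FARSB, the other subunit of the phenylalanine enzyme. DARS had log2 differences of 0.54, 0.78 and 0.71 at 10:2, 10:4 and 10:6, with means of 9.82 FPKM alone and 14.7, 17.5 and 16.6 in the co-cultures. For IARS they were 0.50, 0.52 and 0.59, with means of 31.4 FPKM alone and 44.9, 45.5 and 47.7. For FARSB they were 0.43, 0.43 and 0.52, with means of 20.6 FPKM alone and 28.2, 28.1 and 30.0. The highest adjusted p among these 9 values was 0.000190, for DARS at 10:2.

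**Figure D2:**
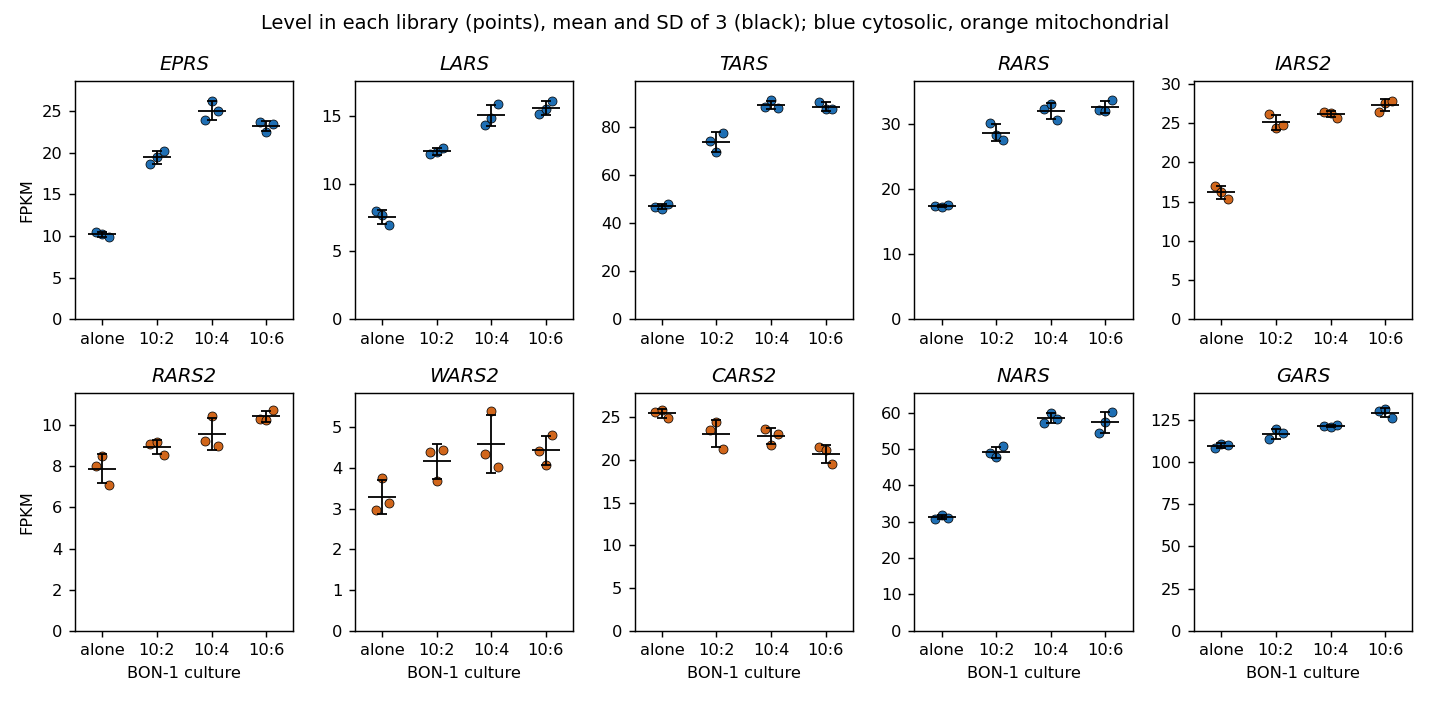
FPKM in each library (points, 3 per group) with the mean and SD (black) for 10 synthetase genes, by BON-1 culture; blue is cytosolic and orange mitochondrial. EPRS, LARS, TARS, RARS, NARS and IARS2 sit well above BON-1 alone in every co-culture library, GARS and RARS2 by less, WARS2 overlaps at 10:2, and CARS2 runs lower.

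The cytosolic genes that fell did so by less than those that rose, GARS apart. At 10:6 they were VARS, FARSA, QARS, MARS and AARS. VARS fell by 0.12, 0.25 and 0.23 on the log2 scale at 10:2, 10:4 and 10:6 (adjusted p = 0.0355, 0.000332 and 0.000496), with means of 30.3, 27.8, 25.4 and 25.7 FPKM from BON-1 alone to 10:6. FARSA fell by 0.24 at 10:4 and 0.23 at 10:6, QARS by 0.13 and 0.14, MARS by 0.15 and 0.10, and AARS by 0.14 and 0.10. At 10:4 WARS fell by 0.13 and YARS by 0.11, and the 4 that fell at 10:2 were VARS, YARS, MARS and AARS. At 10:6 WARS (-0.05) and YARS (-0.05) did not pass. CARS, SARS, KARS and HARS passed in no comparison with BON-1 alone. Their means at 10:6 were 49.1, 94.6, 142 and 64.8 FPKM. Exon bases of MARS overlap DDIT3 and ARHGAP9 for 13.3% of their length and 10.6% of those of WARS overlap other genes; whether the counting used strand is not stated.

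Under median-of-ratios scaling the cytosolic counts were 8 up and 7 down at 10:2, 9 up and 10 down at 10:4, and 9 up and 8 down at 10:6, and the mitochondrial counts 1 and 2, 3 and 4, and 3 and 8. Of the 13312 tested genes 2469 rose and 1819 fell at 10:2 under that scaling. At 10:4 3406 rose and 3462 fell, and at 10:6 3543 rose and 3595 fell. The scaling also moved the share of upward calls among all calls, from 72.8% to 57.6% at 10:2, from 60.2% to 49.6% at 10:4 and from 61.8% to 49.6% at 10:6. The median of all genes moved by less than 0.1 on the log2 scale.

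IARS2, the mitochondrial isoleucine enzyme (chromosome 1 from 220094102 to 220148041, plus strand), was at 17.0, 16.3 and 15.4 FPKM alone, 26.2, 24.4 and 24.7 at 10:2, 26.4, 26.4 and 25.7 at 10:4 and 26.5, 27.6 and 27.8 at 10:6. All 9 co-culture libraries lay above BON-1 alone. Its log2 difference was 0.60 at 10:2, the single mitochondrial call there, 0.66 at 10:4 and 0.72 at 10:6 (SE 0.0424, adjusted p = 2.90e-07). RARS2, the mitochondrial arginine enzyme (chromosome 6 from 87514378 to 87590003, minus strand), was at 8.02, 8.52 and 7.11 FPKM alone, 9.07, 9.17 and 8.54 at 10:2, 9.25, 10.4 and 9.0 at 10:4 and 10.3, 10.3 and 10.7 at 10:6. The co-culture libraries lay above BON-1 alone, at 10:2 by as little as 8.54 against 8.52 FPKM, and the gene rose at 10:4 by 0.25 (adjusted p = 0.00899) and at 10:6 by 0.37 (SE 0.0662, adjusted p = 0.000813).

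WARS2, the mitochondrial tryptophan enzyme (chromosome 1 from 119031216 to 119140671, minus strand), was at 2.96, 3.76 and 3.14 FPKM alone, 4.38, 3.67 and 4.45 at 10:2, 4.34, 5.39 and 4.02 at 10:4 and 4.42, 4.07 and 4.80 at 10:6. At 10:2 its libraries overlapped those of BON-1 alone. At 10:6 the difference was 0.34 (SE 0.103, adjusted p = 0.0168), and the adjusted p was 0.0664 without replicate 1 of BON-1 alone, 0.0529 without its replicate 3 and 0.0652 without replicate 3 of 10:6. CARS2, the mitochondrial cysteine enzyme (chromosome 13 from 110641412 to 110713603, minus strand), was at 25.6, 25.8 and 24.8 FPKM alone, 23.4, 24.4 and 21.3 at 10:2, 23.6, 21.7 and 23.0 at 10:4 and 21.4, 21.1 and 19.5 at 10:6. It lay below BON-1 alone in every co-culture library, and fell at 10:4 by 0.15 (adjusted p = 0.0352) and at 10:6 by 0.29 (SE 0.0538, adjusted p = 0.00107). The call at 10:4 was lost without any 1 of the 3 libraries of BON-1 alone or without replicate 2 or 3 of 10:4, where the difference lay between -0.17 and -0.12, and with no filter on low values (adjusted p = 0.0764).

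LARS2, SARS2 and VARS2, the mitochondrial leucine, serine and valine enzymes, also fell at 10:6. LARS2 fell by 0.18 (adjusted p = 0.00770), from a mean of 14.1 to 12.3 FPKM. SARS2 fell by 0.23 at 10:4 and 0.15 at 10:6 (adjusted p = 0.0385), and VARS2 by 0.17 (adjusted p = 0.0394). Other genes, MRPS12 among them, cover 57.0% of the exon bases of SARS2, and 22.0% of those of VARS2 are shared, so reads of these neighbours may be counted in either. Without replicate 1 of BON-1 alone, 4 mitochondrial genes were called at 10:6 in place of 7.

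The remaining 9 mitochondrial genes passed in no comparison with BON-1 alone. AARS2 for alanine had means of 8.88 FPKM alone and 7.73 at 10:6 (adjusted p = 0.0521). EARS2 for glutamate had 11.5 and 10.8, FARS2 for phenylalanine 6.01 and 5.24, and HARS2 for histidine 21.0 and 21.3. MARS2 for methionine had 13.2 and 13.1, NARS2 for asparagine 7.62 and 8.20, and PARS2 for proline 2.39 and 1.88. TARS2 for threonine had 17.6 and 16.9, and YARS2 for tyrosine 17.1 and 17.1. PARS2 was the least well measured of the 36, with 42 to 81 reads per library at 10:6 and an SE of 0.151 on the log2 scale.

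Between the co-culture ratios 4 of the 36 rose from 10:2 to 10:4, all cytosolic: EPRS by 0.35 (adjusted p = 0.00264), TARS by 0.27 (adjusted p = 0.00710), LARS by 0.26 (adjusted p = 0.0268) and NARS by 0.25 (adjusted p = 0.0111). Of all genes 2.47% rose there. From 10:2 to 10:6, where 4.52% of all genes rose, 6 cytosolic genes did: LARS by 0.31, TARS by 0.26, EPRS by 0.25, NARS by 0.22, RARS by 0.18 and GARS by 0.15. From 10:4 to 10:6 limma called 0 of the 36, with 6 at an unadjusted p under 0.05, and limma-voom on the recovered reads called 0, with 3 at an unadjusted p under 0.05. Of all genes 0.331% were called there in either direction, at an adjusted p under 0.05. The share of all genes at an unadjusted p under 0.05 was not counted, so the 6 and the 3 have no background. For EPRS the difference was -0.11 (adjusted p = 0.329). Calls from 10:2 to 10:4 were fewer, 2, without replicate 2 of 10:2 or without replicate 2 of 10:4. The call for LARS there was lost without any 1 library of 10:2 or without replicate 2 or 3 of 10:4 (log2 difference 0.22 to 0.28), and that for NARS without replicate 2 of either group. From 10:2 to 10:6 the call for GARS was lost without replicate 2 of 10:6 (adjusted p = 0.0505), and that for RARS without replicate 2 or 3 of 10:2 or replicate 2 or 3 of 10:6.

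Summed over the 20 genes, the cytosolic level was 1347 ± 10.0 FPKM alone and 1406 ± 10.5, 1414 ± 3.29 and 1444 ± 5.99 at 10:2, 10:4 and 10:6 (SD, n = 3). The mitochondrial sum was 214 ± 4.36 FPKM alone, 218 ± 6.85 at 10:2, 215 ± 0.996 at 10:4 and 214 ± 1.70 at 10:6. The ratio of the sums ranged from 6.17 to 6.42 in BON-1 alone and from 6.31 to 6.72 at 10:2, which overlapped. It ranged from 6.55 to 6.63 at 10:4 and from 6.65 to 6.80 at 10:6, both above BON-1 alone. The cytosolic sum holds VARS, whose level is not comparable with the others. The sums are led by genes that were already high and moved little, such as MARS and AARS, and the sums and their ratio were not tested.

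The multisynthetase complex holds 8 of the cytosolic members: EPRS, LARS, IARS, MARS, QARS, RARS, KARS and DARS. Of these 8, EPRS, LARS, IARS, RARS and DARS rose in each of the 3 comparisons with BON-1 alone, where 19.9%, 27.3% and 29.7% of all genes rose. They are the 5 members of the complex under 45% GC, a class in which 73.1% of all genes rose at 10:6. MARS fell in all 3, QARS fell at 10:4 and 10:6, and KARS did not pass. Outside the complex 4 of 12 rose at each ratio, and 3, 5 and 3 fell at 10:2, 10:4 and 10:6. The scaffold genes moved unequally: at 10:6 AIMP1 rose by 0.28 (adjusted p = 0.0149) and EEF1E1 by 0.15 (adjusted p = 0.0351), while AIMP2 fell by 0.13 (adjusted p = 0.0342). AIMP1 had means of 4.90 ± 0.376 FPKM alone and 6.18 ± 0.795 at 10:6, and AIMP2 of 41.4 ± 0.950 and 37.9 ± 2.57. With the GC and length trends removed, as described further on, EEF1E1 turned to -0.21 (adjusted p = 0.0252), while AIMP1 was at -0.14 (adjusted p = 0.160) and AIMP2 at -0.07 (adjusted p = 0.205).

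The phenylalanine enzyme of the cytosol is built from FARSA, the catalytic alpha subunit, and FARSB, the beta subunit, in equal numbers. The ratio of FARSA to FARSB in FPKM was 5.80 ± 0.147 (SD, n = 3) alone, 3.86 ± 0.313 at 10:2, 3.59 ± 0.206 at 10:4 and 3.41 ± 0.412 at 10:6, and no co-culture library overlapped BON-1 alone. The length behind the FPKM of FARSB is 4355 bases against 3369 exon bases, so the height of the ratio is no measure of subunit balance. FARSA was at 121, 120.1 and 118 FPKM alone and 107, 104 and 94.3 at 10:6. FARSB was at 21.2, 20.1 and 20.6 FPKM alone and 27.8, 31.3 and 30.9 at 10:6. The subunits differ in GC content, 60.3% against 41.6%, and with the GC and length trends removed, as described further on, FARSA was at -0.08 (adjusted p = 0.173) and FARSB at 0.13 (adjusted p = 0.0339) on the log2 scale at 10:6, and FARSB at 0.05 (adjusted p = 0.401) at 10:4.

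The ratio of the cytosolic to the mitochondrial enzyme for the same amino acid was also taken within each library. LARS to LARS2 was 0.533 ± 0.0504 alone and 1.26 ± 0.0373 at 10:6. In FPKM as deposited, LARS2 was thus the higher in BON-1 alone and LARS at 10:6. EPRS to EARS2 crossed 1 in the same way, from 0.887 ± 0.0665 to 2.16 ± 0.146. The genes of these pairs differ in GC content, LARS 41.5% and LARS2 50.8%, EPRS 43.2% and EARS2 51.6%. Whether either ratio crosses 1 with the GC and length trends removed was not computed. TARS to TARS2 was 2.67 ± 0.175 alone and 5.24 ± 0.0701 at 10:6, and NARS to NARS2 4.09 ± 0.157 and 7.05 ± 0.855. RARS to RARS2 was 2.23 ± 0.225 alone and 3.13 ± 0.0112 at 10:6. For isoleucine both genes rose, and IARS to IARS2 was 1.94 ± 0.119 alone and 1.75 ± 0.05 at 10:6. For tryptophan the ratio went the other way, with WARS to WARS2 at 18.0 ± 2.21 alone and 12.8 ± 0.940 at 10:6. In each of these 7 pairs the libraries of 10:6 and of BON-1 alone did not overlap. They also parted for CARS to CARS2, 1.95 ± 0.0732 alone and 2.38 ± 0.133 at 10:6, and SARS to SARS2, 3.06 ± 0.0610 and 3.38 ± 0.0821. EPRS to PARS2 and FARSB to FARS2 lay higher at 10:6 as well, without overlap. HARS to HARS2 and FARSA to FARS2 overlapped at 10:6, but were below BON-1 alone at 10:4 and 10:2, respectively. Exon bases of HARS overlap HARS2 and WDR55 for 8.38% of their length. Those of HARS2 overlap HARS and ZMAT2 for 15.8%, so reads of this pair may be counted in either. For alanine, methionine, valine and tyrosine the co-cultures overlapped BON-1 alone at every ratio. How often the ratios of other gene pairs part was not counted. The ratios were not tested. With the GC and length trends removed the tryptophan pair at 10:6 was WARS at -0.01 and WARS2 at 0.01 on the log2 scale, with GC contents of 51.8% and 42.4%. In the same fit LARS was at 0.56 and LARS2 at -0.19, EPRS at 0.78 and EARS2 at -0.08, TARS at 0.62 and TARS2 at 0.04, and NARS at 0.61 and NARS2 at -0.20. RARS was at 0.52 and RARS2 at 0.03, and IARS at 0.27 and IARS2 at 0.43.

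**Figure D3:**
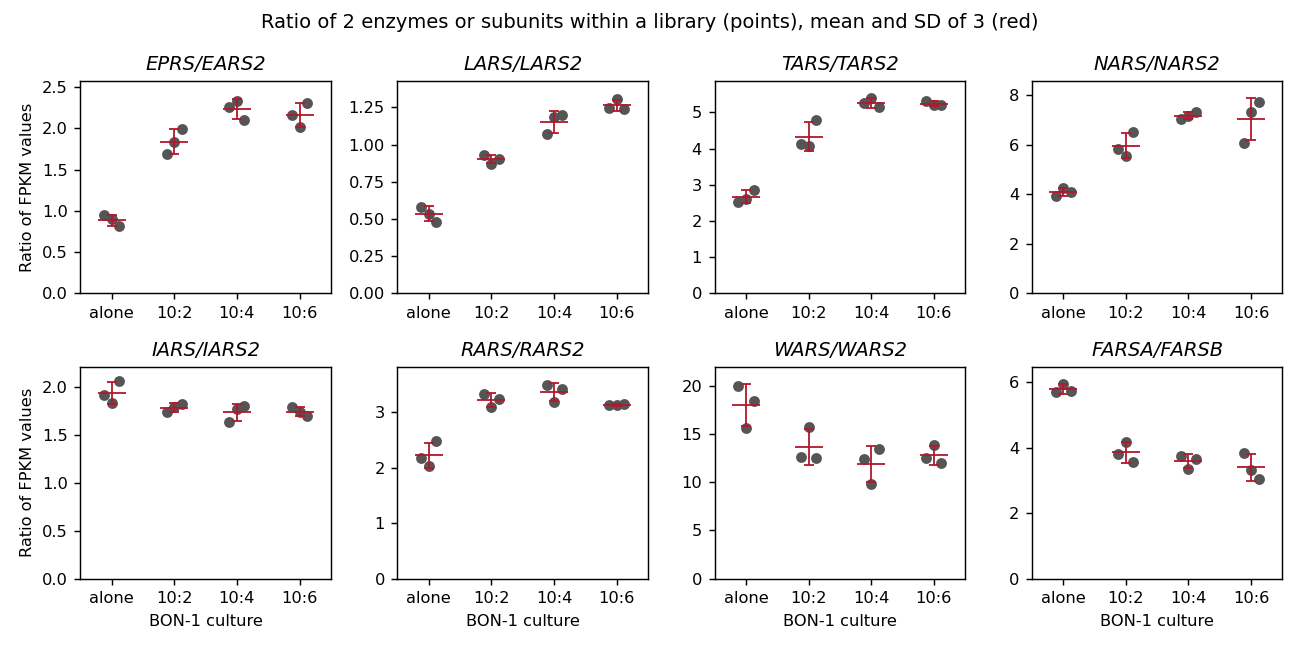
Ratio of the FPKM of 2 enzymes or subunits within each library (points), with the mean and SD of the 3 libraries of a culture (red). The first 7 panels set a cytosolic gene over its mitochondrial counterpart and the last sets FARSA over FARSB. With FPKM as deposited, the ratio of LARS to LARS2 goes from below 1 in BON-1 alone to above 1 at 10:6. FARSA over FARSB goes down.

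The members that rose, GARS apart, shared a low GC content. The 12 members under 45% GC in their longest GENCODE 29 transcript held 9 of the 10 genes that rose at 10:2 and 11 of the 12 that rose at 10:4 and at 10:6, and 0 that fell; the other gene that rose was GARS, at 48.6% GC. NARS2, at 43.9% GC, was the exception at 10:4 and 10:6. Of the 18 members at or above 50% GC, 0 rose, and 4, 9 and 9 fell. The 45% limit was set after the values were seen. GC content was 43.2% for EPRS, 41.5% for LARS and 41.2% for DARS, against 62.6% for VARS and 60.3% for FARSA. The contrast can be read in the middle 120 bases of the coding sequence of EPRS, which rose, and of FARSA and VARS, which fell at 10:6, from GENCODE 29 transcripts (GRCh38), with G and C in capitals.
EPRS: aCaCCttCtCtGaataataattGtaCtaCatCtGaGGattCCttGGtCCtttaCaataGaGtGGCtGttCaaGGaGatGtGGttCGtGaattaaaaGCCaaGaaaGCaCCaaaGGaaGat
FARSA: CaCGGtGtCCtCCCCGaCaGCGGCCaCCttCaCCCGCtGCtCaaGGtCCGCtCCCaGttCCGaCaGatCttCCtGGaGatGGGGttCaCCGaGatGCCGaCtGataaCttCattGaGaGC
VARS: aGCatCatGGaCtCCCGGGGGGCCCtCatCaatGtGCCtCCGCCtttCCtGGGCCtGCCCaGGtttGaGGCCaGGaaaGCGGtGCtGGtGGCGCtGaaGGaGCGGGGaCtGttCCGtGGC
The capitals number 47 of 120 in EPRS (coding bases 2209 to 2328), 72 in FARSA (763 to 882) and 79 in VARS (1837 to 1956). Over the whole coding sequence GC content was 42.1%, 61.3% and 61.5%.

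The relation to GC content ran through all genes. Of the 4053 tested genes under 45% GC, 73.1% rose at 10:6 with a median log2 difference of 0.37, against 0.71 over the 12 members. Of the 5961 at or above 50%, 3.29% rose and 36.3% fell. Over the 36 members the Spearman correlation of GC content with the log2 difference was -0.92 at 10:2, -0.90 at 10:4 and -0.88 at 10:6, and over the 12094 genes with a known GC content it was -0.68, -0.72 and -0.72. These correlations are across genes, which are not independent replicates and share libraries.

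Each library's trend on GC content and length over all 12094 genes was then removed, which leaves changes relative to genes of like composition. The cytosolic counts became 8 up and 1 down at 10:2 (6.05% and 5.52% of all genes), 8 and 2 at 10:4 (10.6% and 12.5%), and 9 and 3 at 10:6 (11.6% and 14.1%). The mitochondrial counts became 1 and 0, 1 and 0, and 1 and 3. At 10:6 EPRS kept a log2 difference of 0.78 (adjusted p = 5.51e-07), TARS 0.62, NARS 0.61, LARS 0.56, RARS 0.52, DARS 0.33, IARS 0.27, GARS 0.19 and FARSB 0.13 (adjusted p = 0.0339), and IARS2 0.43 (adjusted p = 1.49e-05).

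Other calls did not hold with the trends removed. RARS2 at 10:6 was at 0.03 (adjusted p = 0.784) and WARS2 at 0.01 (adjusted p = 0.959), and RARS2 at 10:4 turned to -0.09 (adjusted p = 0.334). FARSB at 10:4 was at 0.05 (adjusted p = 0.401). From 10:2 to 10:6 EPRS was at 0.14 (adjusted p = 0.104), LARS at 0.19 (adjusted p = 0.0542) and RARS at 0.06 (adjusted p = 0.372), and from 10:2 to 10:4 LARS at 0.15 (adjusted p = 0.176). FARSA (-0.08), QARS (-0.03), MARS (-0.02), AARS (-0.03), SARS2 (-0.00359) and VARS2 (-0.09) did not pass at 10:6. The genes that fell at 10:6 were then VARS (-0.16), HARS (-0.18) and KARS (-0.09) in the cytosolic set, and NARS2 (-0.20), LARS2 (-0.19) and CARS2 (-0.18) in the mitochondrial set. A relation to GC content remained over the 36 members, with a Spearman correlation of -0.56 at 10:6, -0.71 over the 20 cytosolic and -0.32 over the 16 mitochondrial genes.

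**Figure D4:**
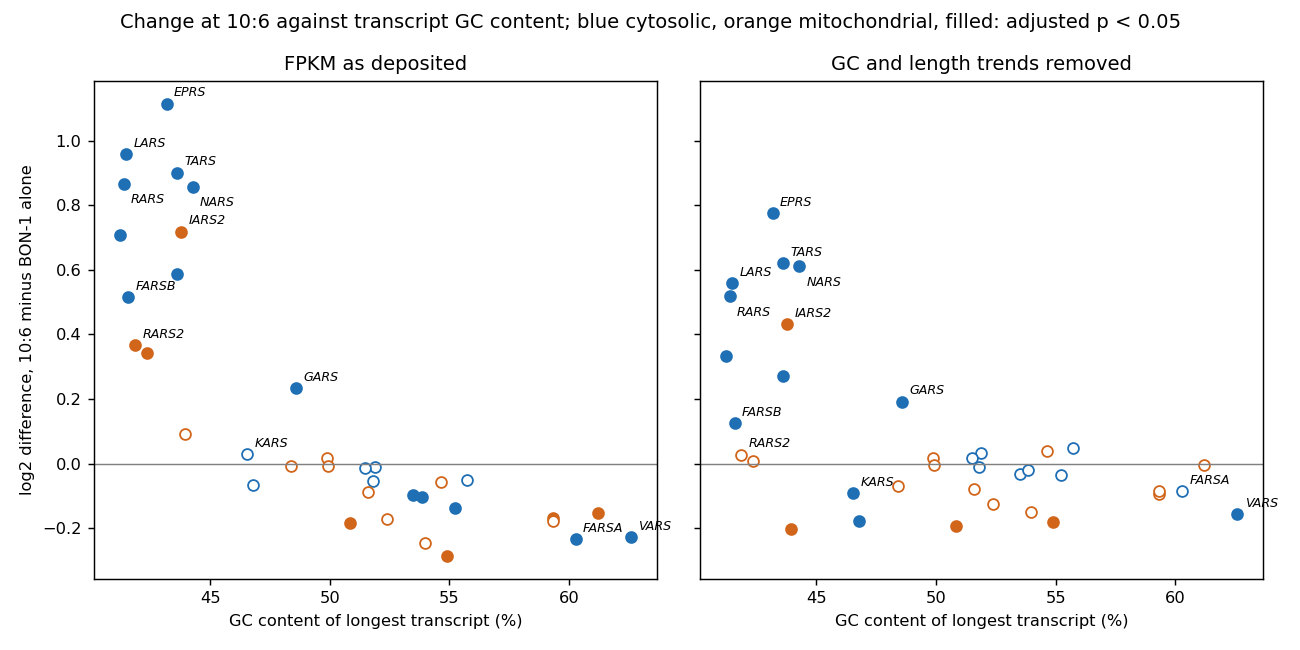
Log2 difference at 10:6 against the GC content of the longest transcript for the 36 synthetase genes (blue cytosolic, orange mitochondrial, filled where the limma adjusted p is under 0.05), with FPKM as deposited on the left and with each library's GC and length trends removed on the right. EPRS stands highest in both, at 1.11 and 0.78, and RARS2 goes from 0.37 to 0.03.

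The start sites of the members were searched for TGATGNAA, the core of the composite C/EBP-ATF element through which ATF4 is known to act, on both strands, in the window from 250 bases before to 50 after each start (RefSeq, GRCh38.p14). Windows were matched for 30 of the 36 members, and not for DARS, LARS, VARS, YARS, AARS2 and VARS2. The letters were present in 7 of 30, AARS, CARS, IARS, MARS, NARS, TARS and YARS2, and in 3.62% of 35116 windows of all genes. The 6 cytosolic matches are shown with 10 bases on either side, on the strand of the gene, with the match in capitals, since 3 of them belong to genes that rose and 2 to genes that fell at 10:6.
IARS: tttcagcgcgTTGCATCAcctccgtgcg
NARS: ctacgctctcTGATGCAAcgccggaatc
TARS: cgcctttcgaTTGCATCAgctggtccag
AARS: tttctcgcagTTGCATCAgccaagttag
MARS: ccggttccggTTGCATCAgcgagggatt
CARS: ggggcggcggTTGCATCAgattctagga
The stretches are IARS at chr9:92293693-92293720 (minus strand), NARS at chr18:57621805-57621832 (minus strand), TARS at chr5:33440957-33440984 (plus strand), AARS at chr16:70289676-70289703 (minus strand), MARS at chr12:57488054-57488081 (plus strand) and CARS at chr11:3057408-3057435 (minus strand). In NARS the letters read TGATGCAA on the gene's strand, and in the other 5 TTGCATCA, the same letters on the opposite strand.

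The log2 difference at 10:6 was 0.59 for IARS, 0.86 for NARS and 0.90 for TARS. It was -0.10 for AARS, -0.10 for MARS and -0.01 for CARS, the last without a call. EPRS, GARS, RARS and FARSB rose without a match in their windows, as did the mitochondrial IARS2, RARS2 and WARS2. DARS and LARS also rose, and no window of theirs was searched. A match is a description of these letters and not a site in use. ATF4 itself was at 513 ± 4.31 FPKM alone and 487 ± 17.5 at 10:6 (log2 difference -0.08, adjusted p = 0.0639). Its log2 difference was -0.11 at 10:2 (adjusted p = 0.0238) and -0.12 at 10:4 (adjusted p = 0.00883), both past the test. With the trends removed these were -0.01 (adjusted p = 0.784) and 0.00614 (adjusted p = 0.887).

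Of 17 tested genes of the ATF4 amino acid response 7 rose and 5 fell at 10:6, against 29.7% and 18.3% of all genes, and 2 rose and 1 fell with the trends removed, against 11.6% and 14.1%. ASNS, asparagine synthetase, rose by 0.30 (adjusted p = 1.29e-05) from 116 ± 0.306 to 144 ± 1.91 FPKM, and by 0.20 with the trends removed (adjusted p = 0.000317). PSAT1, an enzyme of serine synthesis, rose by 0.32 (adjusted p = 1.52e-05) but was at 0.000581 with the trends removed. The median log2 difference of the 17 at 10:6 was -0.04, against 0.02 over all genes.

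Of 15 partner genes, which act on charged transfer RNA, bind synthetases or belong to the selenocysteine pathway, 4 rose and 2 fell at 10:6, near the 29.7% and 18.3% of all genes, and 0 rose and 4 fell with the trends removed, where 11.6% and 14.1% of all genes did. QRSL1, a subunit of the mitochondrial amidotransferase that makes glutaminyl transfer RNA, rose by 0.37 (adjusted p = 0.000349), and AARSD1, an editing protein for mischarged alanine transfer RNA, fell by 0.22 (adjusted p = 0.00125). With the trends removed QRSL1 was at -0.04 and AARSD1 at -0.12, neither past the test.

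Of 21 genes for transfer RNA maturation and export 5 rose and 6 fell at 10:6, against 29.7% and 18.3% of all genes, and 1 rose and 5 fell with the trends removed, against 11.6% and 14.1%. XPOT, the export receptor of transfer RNA, was the one that rose in both, by 0.76 (adjusted p = 6.49e-07) from 7.22 ± 0.0660 to 13.0 ± 0.739 FPKM and by 0.33 with the trends removed (adjusted p = 0.000118). TSEN15, a subunit of the splicing endonuclease, rose by 0.40 (adjusted p = 8.52e-05) and was at 0.02 with the trends removed. Of 10 elongation factor genes 2 rose and 4 fell at 10:6, against 29.7% and 18.3% of all genes. EEF1A2, EEF1D, EEF2 and TUFM fell there. With the trends removed, where 11.6% of all genes rose and 14.1% fell, EEF1A1, EEF2, TUFM and TSFM fell. Those that rose, in both fits, were GFM1 and GFM2, the mitochondrial elongation factor G proteins, by 0.88 (adjusted p = 3.67e-07) and 0.65 (adjusted p = 1.99e-06), and by 0.50 and 0.33 with the trends removed.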

How the data were processed

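RNA-seq of 12 libraries was analysed from FPKM that the authors deposited in a single table. The submitters' processing notes name hg38, HISAT2 and featureCounts, without versions; no strand setting is stated. Library columns were matched by the codes in the sample titles.

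Whole reads were recovered from the FPKM values (99.9738% of 267349 nonzero values whole within 1e-06 of a read). Genes with at least 1 FPKM in at least 3 libraries (13312) were fitted as log2(FPKM + 1) in limma 3.58.1 (R 4.3.3), 1 mean per group over 12 libraries, with a variance trend and Benjamini-Hochberg adjustment at 0.05. The fit was tested on simulated data. GC content came from the longest GENCODE 29 transcript of a symbol; trends on GC content and length were removed per library with natural splines of 5 degrees of freedom (12094 genes).

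Alternatives were a pseudocount of 0.1, no filter, median-of-ratios scaling, no variance trend, only the groups compared, the replicate number as a block, limma-voom on the reads, the trend removal, and leaving out each library. The members and gene lists were chosen with earlier results of these data known. Each member was named; library values were given for EPRS, for the 4 cytosolic and 4 mitochondrial genes with the largest called differences at 10:6 and for those called between ratios, and for FARSA and FARSB, which were added after their values were seen. For each other list the 2 genes with the smallest adjusted p at 10:6, were named, and also ATF4 and the scaffold genes, chosen after their values were seen. A gene of the partner list and a sequence are not reported here.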

Additional observations from a re-analysis of the deposited data

How the results depend on the processing

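Of 180 values of the 9 counts of called synthetases under the alternatives, 160 stayed within 1.5 times the main count and 20 did not. Single genes were followed for 37 called results of EPRS, LARS, TARS, RARS, NARS, GARS, IARS2, RARS2, WARS2 and CARS2 only. Of their 740 values 690 kept their call and direction, 49 kept the direction and lost the call, and 1 reversed. The reversal was RARS2 at 10:4 with the trends removed (-0.0901). Other called genes are not in the 740. With the trends removed FARSA, QARS, MARS, AARS, SARS2 and VARS2 lost their calls at 10:6, while VARS, DARS, IARS, FARSB and LARS2 kept theirs. YARS at 10:4 went from -0.11 to 0.000258 in that fit (adjusted p = 0.996). With no variance trend 8 cytosolic genes were called at 10:2, not 13. With median-of-ratios scaling 3 mitochondrial genes were called at 10:2, not 1, and 11 at 10:6, not 7; limma-voom on the reads also called 3 at 10:2. With the GC and length trends removed 10 cytosolic and 1 mitochondrial genes were called at 10:4, not 16 and 5, 4 mitochondrial genes at 10:6, and 3 of all 36 from 10:2 to 10:6, not 6. With only the groups compared in the fit, which leaves fewer libraries to estimate the spread, 1 of the 36 was called from 10:2 to 10:4, not 4, and 3 from 10:2 to 10:6.

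Leaving out 1 library at a time gave 8 to 14 cytosolic calls at 10:2, 16 to 17 at 10:4 and 13 to 15 at 10:6, and 1 to 4, 4 to 5 and 4 to 8 mitochondrial calls. From 10:2 to 10:4 it gave 2 to 4 of the 36, from 10:2 to 10:6 4 to 6, and from 10:4 to 10:6 0 in each case. The 8 cytosolic calls at 10:2 came without replicate 1 or 2 of BON-1 alone or replicate 3 of 10:2. The mitochondrial count at 10:2 was 2 without replicate 2 of BON-1 alone or replicate 1 or 2 of 10:4, and 4 without replicate 2 of 10:2.

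Same-numbered libraries did not deviate together (18 pairs, correlations from -0.0427 to 0.0458, 1 library closest to its own number), so the numbers do not pair the samples. With the replicate block 9 cytosolic and 1 mitochondrial genes were called at 10:2, where AARS, GARS, VARS and YARS lost their calls (adjusted p from 0.0521 to 0.0616), 16 and 5 at 10:4, and 14 and 5 at 10:6; 3, 0 and 5 of the 36 were called from 10:2 to 10:4, from 10:4 to 10:6 and from 10:2 to 10:6. Depth limits PARS2 and WARS2 most.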

Other observations

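Other letters in the 30 matched start-site windows were counted, on both strands, as values with no explanation. CGCANGCG, the core of the NRF1 site, was present in 8 of 30 members and in 10.0% of 35116 windows of all genes; the members were FARSB, NARS, SARS, TARS, HARS2, IARS2, MARS2 and PARS2. CACGTG was present in 4 of 30, IARS, CARS2, EARS2 and MARS2, and in 7.26% of all windows. CCAAT was present in 16 of 30 and in 34.6% of all windows.

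The table held 15 rows named as pseudogenes of these synthetases. Of these 2 were above 0 in any library, and the highest value was 0.141 FPKM.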
